A study of Mus musculus with 6 samples.

Results

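The genes that copy the genome during S phase were measured in whole mouse embryos of wild-type and Tcof1 heterozygous genotype. A list of 47 DNA replication genes was drawn up by known function, and 46 of them were found among the 18193 genes named on the array as the sole gene of at least 1 probe set, the unit of this array, in which several short probes for a transcript are read as 1 value. Chaf1a was the listed gene not matched in this way. The embryos were taken at embryonic day 8.5: 3 were wild type and 3 were Tcof1+/- littermates. Tcof1 encodes treacle, a nucleolar protein required for ribosomal RNA synthesis. RNA of each embryo was amplified, labelled with biotin and hybridised to an Affymetrix Mouse Genome 430 2.0 array of its own, so the replicates are separate embryos. Neither the strain nor the nature of the altered allele was stated in the labels.

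Replication begins at origins that are marked by the origin recognition complex and loaded with the ring-shaped MCM helicase before S phase. The helicase is then activated by a kinase, Cdc45 and the GINS complex. Polymerases copy the opened strands, held on the DNA by the PCNA ring, while ribonucleotide reductase supplies deoxynucleotides and other factors rebuild chromatin and DNA methylation behind the fork. Many of these genes are transcribed under E2F factors as cells enter S phase, and the early embryo is among the most rapidly dividing mammalian tissues.

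In these embryos the replication genes lay at nearly the same level in both genotypes. None of the 46 passed over all probe sets tested, in either direction (limma, smallest Benjamini-Hochberg adjusted p = 0.70). At an adjusted p under 0.05, 0.117% of all tested genes were called higher and 0.00778% lower. At an unadjusted p under 0.05 in limma, 6 of the 46 members were lower and 0 higher. Of all tested genes, 3.89% were lower and 3.00% higher at that unadjusted threshold. The log2 differences, heterozygous minus wild type, ran from -0.29 for the flap endonuclease gene Fen1 to 0.28 for the polymerase alpha gene Pola1, with a median of -0.03, beside a median of -0.01 over 12853 tested genes. All 46 differences were smaller than 0.32 in size on the log2 scale, which held for 84.2% of all tested genes and 96.8% of the 5013 tested genes with a mean signal of at least 250. The 95% interval of the difference stayed within 1.5-fold in either direction for 45 members, and the exception was Pola1. That share of members, 97.8%, compares with 60.6% of all tested genes and 94.7% of those with a mean signal of at least 250, a range that holds 44 of the 46 members. Both limits were chosen after the values were seen. In whole embryos, fewer cells in S phase and less RNA per cell cannot be told apart.

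**Figure D1:**
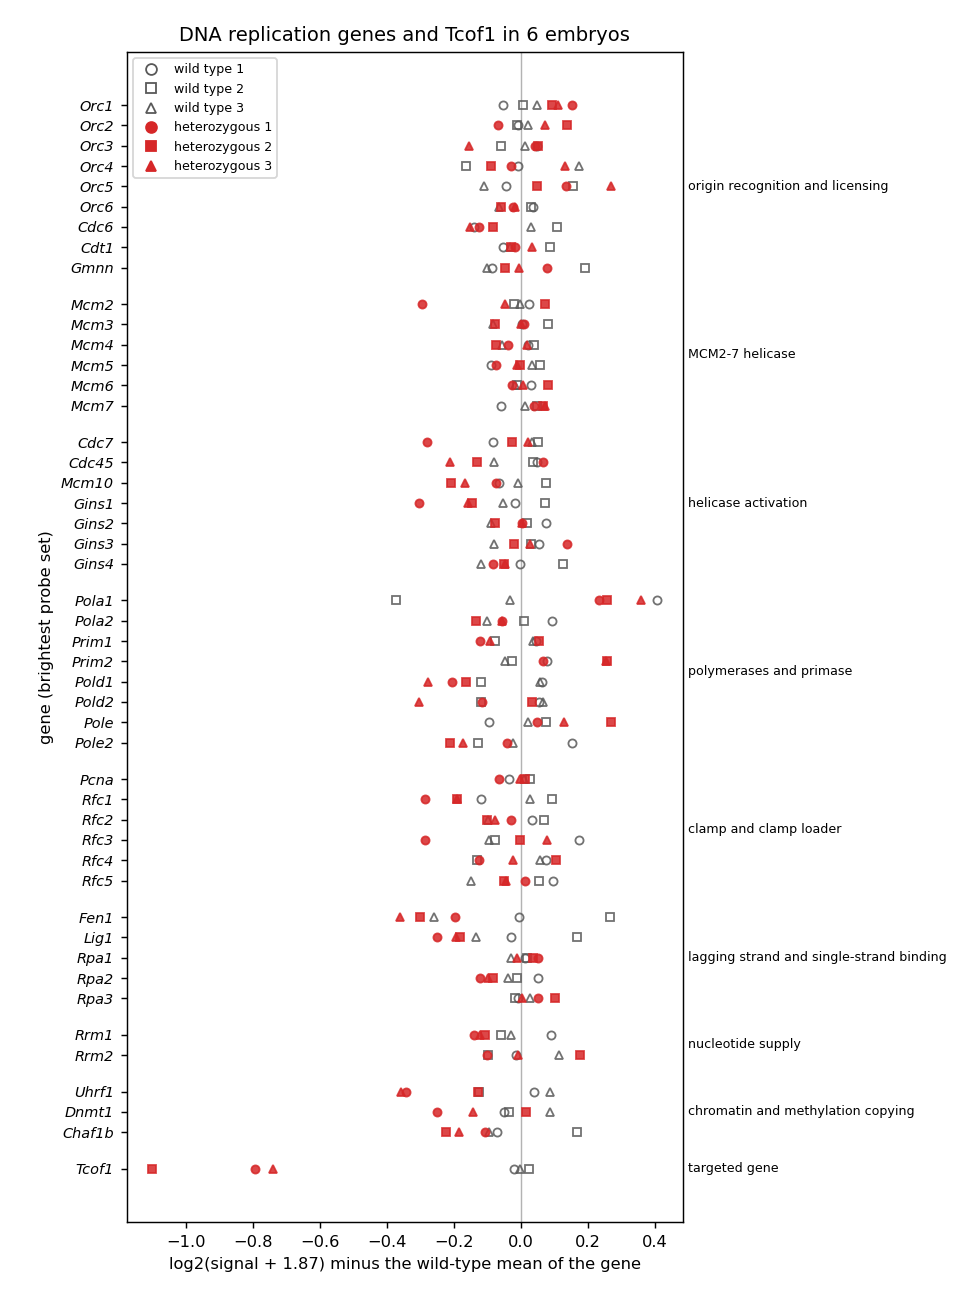
Each row is a gene and each point an embryo, placed by log2(signal + 1.87) minus the mean of the 3 wild types (horizontal axis), with open grey symbols for wild type and filled red symbols for heterozygotes. Points of both genotypes overlap for most of the 46 replication genes and lie close to each other for the other 10, while the 3 heterozygotes lie far below the wild types for Tcof1.

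The arrays had been scaled by the authors to a trimmed mean signal of 150. Tcof1 signal was 382, 393 and 387 in wild-type embryos 1, 2 and 3 and 222, 179 and 231 in the heterozygous ones. The groups did not overlap on this brightest probe set, and the log2 difference was -0.88 (SE 0.12, limma adjusted p = 0.0352). Its dimmer probe sets were also lower without overlap but did not pass. They differed by -0.70 (interval -1.04 to -0.35, limma adjusted p = 0.385) and -0.61 (interval -0.94 to -0.27, limma adjusted p = 0.582). The embryonic neural tube, heart and somite markers used for the check (Otx2, Sox1, Myl7, Nkx2-5, Meox1 and Tcf15) were all bright enough to be tested. The neural tube pair, Otx2 and Sox1, had a summed signal of 522, 412 and 565 in wild types and 318, 309 and 386 in heterozygotes, without overlap. The heart pair, Myl7 and Nkx2-5, went the other way, at 2367, 2172 and 1857 against 2454, 2781 and 2387, also without overlap. Nkx2-5 alone overlapped between genotypes. The somite pair, Meox1 and Tcf15, summed to 656.5 to 1205 in wild types and 568 to 787 in heterozygotes. The part of these pairs in the differences of the replication genes was not tested. Other tissues varied between embryos: the summed signal of 6 primitive erythroid markers was 5788 to 13641 in wild types and 307 to 11211 in heterozygotes, and that of 8 yolk sac endoderm markers 1913 to 9963 and 856 to 15796. Trophoblast markers (4 of 7 named, 2 tested) summed to 214 to 221 in wild types and 230 to 290 in heterozygotes, higher without overlap. The tested ones, Plac1 and Hand1, each overlapped between genotypes. Decidua markers (3 of 5 tested) summed to 162 to 239 and 164 to 213, and maternal blood markers (1 of 4 tested) to 9.31 to 34.7 and 9.47 to 50.9. These sums include named markers too dim to be tested. Xist signal was 1520, 2138 and 33.6 in the wild types and 2358, 31.0 and 25.1 in the heterozygotes, so the sexes were not balanced. Replicates 1 and 2 of each genotype were scanned on the first day and replicate 3 on the second. No fluidics module held both genotypes, so module and genotype cannot be told apart.

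The promoters of the members were searched for short words known from cell cycle genes. RefSeq windows of 300 bases on GRCm38.p6, from 250 before to 50 after a transcription start, were at hand for 39 of the 47 listed genes, Chaf1a included, and not for Gmnn, Mcm4, Gins1, Gins2, Gins4, Prim2, Pole and Rfc2. They were searched on both strands for the E2F words TTTCCCGC, TTTCGCGC, TTTGCCGC and TTTGGCGC, for CCAAT, the box bound by NF-Y, and for TTTGAA, a form of the cell cycle homology region (CHR). An E2F word was found in 16 of the 39 (41%), against 4.65% of the 10367 genes tested on the array with a window, 2.60% of all 27025 genes with one and 22.0% of 41 related replication genes. Most of the 39 therefore held none. Some genes had several windows, 51 for the 39, and a match in any of them counted for the gene. By window, 31.4% held an E2F word for members and 3.83% for tested genes. CCAAT was present in 66.7% of members and 42.8% of tested genes, and TTTGAA in 17.9% and 14.2%. Among 24 mitosis genes E2F words were found in 12.5%, TTTGAA in 75.0% and CCAAT in 83.3%. The median GC content of the windows was 61.3% for members and 60.7% for tested genes. A match is a run of letters and was not tested as a binding site.

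The promoters below show how the E2F words (in capitals) sit in 3 genes of the MCM helicase and in Pold1 and Uhrf1. The former hardly differed on their brightest probe sets, and the latter had differences among the most negative. Matches on opposite strands overlap in Mcm5 and Mcm6. Only windows with an E2F word are shown, and Uhrf1 had another window with CCAAT but no E2F word. The windows are chr1:20820263-20820562 on the minus strand for Mcm3, chr8:75109259-75109558 on the plus strand for Mcm5, chr1:128359656-128359955 on the minus strand for Mcm6, chr7:44548766-44549065 on the minus strand for Pold1 and chr17:56304063-56304362 on the plus strand for Uhrf1, each read 5′ to 3′ along the gene.
Mcm3: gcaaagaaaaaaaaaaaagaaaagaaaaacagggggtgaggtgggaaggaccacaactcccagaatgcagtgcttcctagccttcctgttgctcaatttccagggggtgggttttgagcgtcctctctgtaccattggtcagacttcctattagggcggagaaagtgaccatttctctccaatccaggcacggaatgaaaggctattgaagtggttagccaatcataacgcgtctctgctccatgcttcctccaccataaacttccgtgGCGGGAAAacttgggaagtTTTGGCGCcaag
Mcm5: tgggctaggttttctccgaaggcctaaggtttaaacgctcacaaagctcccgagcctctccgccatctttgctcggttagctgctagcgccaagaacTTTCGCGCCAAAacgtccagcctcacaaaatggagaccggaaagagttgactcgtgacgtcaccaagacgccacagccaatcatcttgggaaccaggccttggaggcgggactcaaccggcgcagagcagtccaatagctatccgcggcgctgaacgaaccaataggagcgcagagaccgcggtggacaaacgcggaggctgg
Mcm6: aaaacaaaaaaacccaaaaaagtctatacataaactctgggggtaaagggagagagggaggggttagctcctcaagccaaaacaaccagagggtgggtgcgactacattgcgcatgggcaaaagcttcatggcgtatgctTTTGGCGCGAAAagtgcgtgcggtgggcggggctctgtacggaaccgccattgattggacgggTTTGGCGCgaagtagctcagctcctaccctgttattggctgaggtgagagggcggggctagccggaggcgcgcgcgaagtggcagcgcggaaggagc
Pold1: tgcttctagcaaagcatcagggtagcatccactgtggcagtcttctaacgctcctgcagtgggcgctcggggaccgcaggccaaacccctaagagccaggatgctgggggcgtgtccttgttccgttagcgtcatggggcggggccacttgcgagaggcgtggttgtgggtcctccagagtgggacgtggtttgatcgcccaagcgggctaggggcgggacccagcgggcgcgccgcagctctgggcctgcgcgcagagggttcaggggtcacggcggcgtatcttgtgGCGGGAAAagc
Uhrf1: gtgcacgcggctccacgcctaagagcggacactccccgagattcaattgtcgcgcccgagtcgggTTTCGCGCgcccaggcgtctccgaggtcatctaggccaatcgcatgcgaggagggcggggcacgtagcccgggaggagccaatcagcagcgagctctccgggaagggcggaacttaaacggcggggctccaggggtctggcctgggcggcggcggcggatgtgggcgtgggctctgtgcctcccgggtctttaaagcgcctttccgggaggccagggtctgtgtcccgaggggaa

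Members with and without an E2F word had similar differences between genotypes. The median was -0.03 over the 16 members with one, from -0.28 to 0.28, and -0.07 over the 22 array members with a window and no match, from -0.29 to 0.15. Of the 16 with a word 10 were negative and 3 separated the genotypes in the lower direction. Cdt1, at 0.997-fold, was not counted among these 10 because its log2 difference rounds to 0.00 in size. Of the 22 without a word 16 were negative and 5 separated the genotypes in the lower direction. Over all tested genes 52.7% were negative and 7.31% separated the genotypes in the lower direction. In members, the 23 matches had a median position 37 bases upstream of the start (-37), and 14 of them lay between -100 and 50. Over all tested genes the median position was -90.5, and 284 of 538 matches lay in that interval; the difference was not tested.

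**Figure D2:**
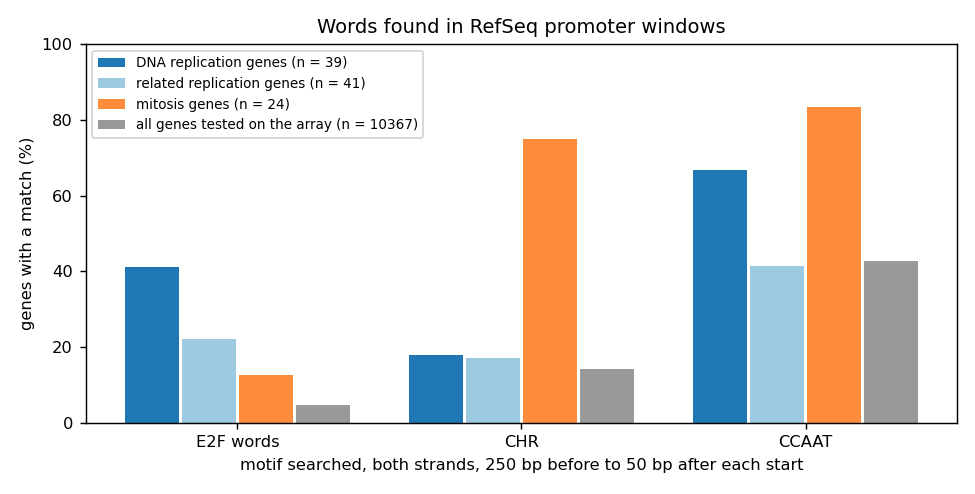
Bars give, for 4 sets of genes, the percentage with a match to the E2F words, TTTGAA (CHR) or CCAAT in any promoter window. E2F words were found in 41% of replication genes and 4.65% of tested genes, and the CHR word in 75.0% of mitosis genes and 17.9% of replication genes.

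Origin recognition and licensing genes had a median difference of 0.00, and 9 of 9 intervals lay within 1.5-fold. Orc1, the ATPase subunit of the origin recognition complex that is made anew in each cycle, gave signals of 193, 201 and 207 in wild types and 223, 213 and 216 in heterozygotes on its brightest probe set. Heterozygotes were all above wild types there (log2 0.12, SE 0.10, limma adjusted p = 0.876), and Orc1 was the single member with no overlap in the higher direction, at 2.17% of members and 5.70% of all tested genes. A second probe set of Orc1 gave the opposite order without overlap, at 83.1, 93.1 and 85.7 against 72.0, 69.6 and 68.4 (log2 -0.31), so the sign for this gene depends on the probe set.

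Orc5, another subunit of the complex, had the smallest p of the group. Its signal was 635, 730 and 607 in wild types and 719, 678 and 790 in heterozygotes, with overlap (log2 0.15, SE 0.10, adjusted p = 0.847). Cdc6, which loads the helicase together with Cdt1, gave 924, 1097 and 1040 in wild types. In heterozygotes it gave 932, 960 and 916, within or just below the wild-type range (log2 -0.12, SE 0.08, adjusted p = 0.851). Cdt1 itself differed by 0.00 in size on its brightest probe set. A second Cdt1 probe set gave 979, 923 and 961 in wild types and 815, 832 and 891 in heterozygotes, lower without overlap (log2 -0.17, SE 0.07, unadjusted p = 0.0433 in limma, adjusted p = 0.792), and the mean of both differed by -0.09. Geminin (Gmnn), the inhibitor that keeps Cdt1 from reloading origins, differed by 0.01. The remaining subunits Orc2, Orc3, Orc4 and Orc6 differed by 0.05, -0.02, 0.00 and -0.03 on their brightest probe sets. For Orc4 a second one was higher without overlap, at 132, 145 and 180 against 210, 192 and 194 (log2 0.39, SE 0.14, unadjusted p = 0.0199 in limma, adjusted p = 0.751), and the mean of its 4 tested probe sets differed by 0.20.

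On their brightest probe sets the 6 subunits of the MCM helicase differed by little, from -0.09 to 0.06. Their median SD between replicates was 0.055 on the log2 scale, beside 0.179 for all tested genes. It was 0.109 for tested genes with a mean signal of at least 250. Mcm7 had the smallest p. It gave 4995, 5378 and 5248 in wild types and 5344, 5448 and 5474 in heterozygotes (log2 0.06, SE 0.05, adjusted p = 0.874), and the 95% interval ran from -0.06 to 0.17. Mcm2 was at 2193, 2123 and 2151 in wild types and at 1754, 2263 and 2086 in heterozygotes (log2 -0.09, SE 0.09, adjusted p = 0.887). Heterozygous embryo 1 was low for Mcm2, embryo 3 lay just below the wild types and embryo 2 above them. Mcm3, Mcm4, Mcm5 and Mcm6 differed by -0.02, -0.03, -0.03 and 0.02 on their brightest probe sets. All 6 of these intervals lay within 0.32 of 0. Some dimmer probe sets differed more. A second Mcm5 probe set gave 1230, 1267 and 1309 in wild types and 1127, 1227 and 1121 in heterozygotes, lower without overlap (log2 -0.13, SE 0.07). A dimmer Mcm3 probe set was also lower without overlap (log2 -0.12, SE 0.07), and another was higher with overlap (log2 0.25, interval -0.16 to 0.67).

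Of the 7 genes that activate the helicase none passed. Their differences were negative for 6, with a median of -0.09, which by scan day was -0.13 (first) and -0.01 (second). Gins1, a subunit of the GINS complex that joins Cdc45 and the MCM ring, gave 840, 893 and 818 in wild types and 688, 768 and 761 in heterozygotes. All heterozygotes were below all wild types, and the log2 difference was -0.20 (SE 0.08, unadjusted p = 0.0332 in limma, adjusted p = 0.781). Within scan days it was -0.25 (first day) and -0.10 (second day). Mcm10, a scaffold needed to start the unwinding of origins, gave 695, 766 and 723 against 690, 629 and 648, again without overlap, although heterozygous embryo 1 lay just below wild-type embryo 1 (log2 -0.15, SE 0.08, adjusted p = 0.824). The kinase gene Cdc7 differed by -0.10, Cdc45 by -0.09 (0.01 with its probe sets averaged), and the other GINS subunit genes Gins2, Gins3 and Gins4 by -0.02, 0.05 and -0.06.

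The polymerase and primase genes spread in both directions, with 5 of 8 negative and a median of -0.07. Pold1, the catalytic subunit of polymerase delta, which copies the lagging strand, gave 950, 836 and 946 in wild types and 788, 812 and 749 in heterozygotes. The groups did not overlap (log2 -0.22, SE 0.08, unadjusted p = 0.0264 in limma, adjusted p = 0.774), with -0.16 between embryos scanned first and -0.34 between those scanned later. That probe set carries the suffix that Affymetrix gives to sets whose probes may bind other transcripts. The brightest probe sets of Mcm5, Rrm2 and Dnmt1 carry that suffix as well. A second Pold1 probe set without it had the same order, at 757, 697 and 695 against 619, 608 and 591 (log2 -0.24, SE 0.08), also without overlap. Its accessory subunit gene Pold2 differed by -0.13.

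Prim2, the large primase subunit gene, gave 366, 340 and 335 in wild types and 364, 415 and 414 in heterozygotes. Heterozygous embryo 1 lay inside the wild-type range (log2 0.19, SE 0.10, adjusted p = 0.810), and the second tested probe set of Prim2 differed by -0.05. Pola1, the catalytic subunit of polymerase alpha and an X-linked gene, was the most variable member among wild types, at 514, 298 and 378, while heterozygotes gave 455, 463 and 496 (log2 0.28, SE 0.17, interval -0.10 to 0.66, adjusted p = 0.837). Wild-type embryo 2 was low, and without it the difference was 0.09; with Xist signal as a covariate it was 0.27. Prim1, the catalytic primase subunit gene, differed by -0.05 and Pola2 by -0.08. For polymerase epsilon, which copies the leading strand, the catalytic subunit gene Pole differed by 0.15 and the second subunit gene Pole2 by -0.14.

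The clamp gene Pcna, whose product rings the DNA and tethers polymerases, gave 5917, 6180 and 6098 in wild types and 5791, 6117 and 6049 in heterozygotes (log2 -0.02, SE 0.05, interval -0.13 to 0.09). The 5 genes of the clamp loader that opens the ring had negative differences on their brightest probe sets, and all but Rfc1 had a size of at most 0.07. Rfc1, the large subunit, gave 664, 770 and 736 in wild types and 592, 632 and 632 in heterozygotes, without overlap (log2 -0.22, SE 0.09, unadjusted p = 0.0281 in limma, adjusted p = 0.774). Its other probe sets differed by -0.13 and -0.09. Rfc2, with the next smallest p, gave 799, 819 and 729 against 765, 728 and 741 (log2 -0.07, SE 0.08), and the genotypes overlapped. Rfc3, Rfc4 and Rfc5 differed by -0.07, -0.02 and -0.03, and their sign turned in 2, 5 and 2 of 19 alternative settings. A second Rfc4 probe set was higher without overlap, at 690, 660 and 640 against 700, 745 and 732 (log2 0.13, SE 0.08, adjusted p = 0.837).

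Among genes that finish the lagging strand, Fen1, which removes the flaps left by RNA primers, had the most negative difference of all members. Its signal was 6607, 7978 and 5549 in wild types and 5786, 5383 and 5169 in heterozygotes, with overlap at wild-type embryo 3 (log2 -0.29, SE 0.11, unadjusted p = 0.0282 in limma, adjusted p = 0.774). Without wild-type embryo 2 the difference was -0.15. The brightest probe set of Fen1 carries the same suffix as that of Pold1, and the second one differed by -0.03. Lig1, the ligase that joins the finished fragments, gave 1223, 1403 and 1137 in wild types and 1049, 1102 and 1092 in heterozygotes. These did not overlap (log2 -0.21, SE 0.09, unadjusted p = 0.0386 in limma, adjusted p = 0.782), but the first day's arrays gave -0.28 and the second day's -0.06, and without wild-type embryo 2 the difference was -0.13.

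Replication protein A covers the exposed single strands as a complex of 3 subunits. Rpa2 gave 779, 746 and 733 in wild types and 690, 709 and 703 in heterozygotes, a small difference without overlap (log2 -0.10, SE 0.07, adjusted p = 0.854). Its partners Rpa1 and Rpa3 differed by 0.02 and 0.05.

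For nucleotide supply, Rrm1, the large subunit of ribonucleotide reductase, gave 1849, 1666 and 1700 in wild types and 1574, 1612 and 1595 in heterozygotes. The groups were close but did not overlap (log2 -0.12, SE 0.07, adjusted p = 0.823), and the second tested probe set differed by -0.10. Rrm2, the small subunit that is made in S phase, gave 3816, 3605 and 4173 against 3592, 4356 and 3837, with full overlap (log2 0.02, SE 0.08, adjusted p = 0.972). The interval of Rrm2 ran from -0.16 to 0.21.

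The 3 measured genes of chromatin and methylation copying were all negative, with a median of -0.17. Uhrf1, which recognises hemimethylated DNA behind the fork and recruits the methyltransferase Dnmt1, had the smallest p of all members. It gave 1554, 1387 and 1607 in wild types and 1191, 1385 and 1179 in heterozygotes (log2 -0.28, SE 0.09, interval -0.48 to -0.08, unadjusted p = 0.0113 in limma, adjusted p = 0.70). The genotypes did not overlap, by a margin of only 1387 against 1385 in the second embryo of each. A dimmer probe set of Uhrf1 gave 440, 488 and 345 against 351, 273 and 317, with overlap (log2 -0.43, SE 0.14). Chaf1b, a subunit of the histone chaperone CAF-1, gave 632, 746 and 622 against 616, 568 and 583, without overlap (log2 -0.17, SE 0.10, adjusted p = 0.824). Without wild-type embryo 2 the difference was -0.09, and a faint second probe set of Chaf1b differed by 0.28. Dnmt1 differed by -0.13.

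**Figure D3:**
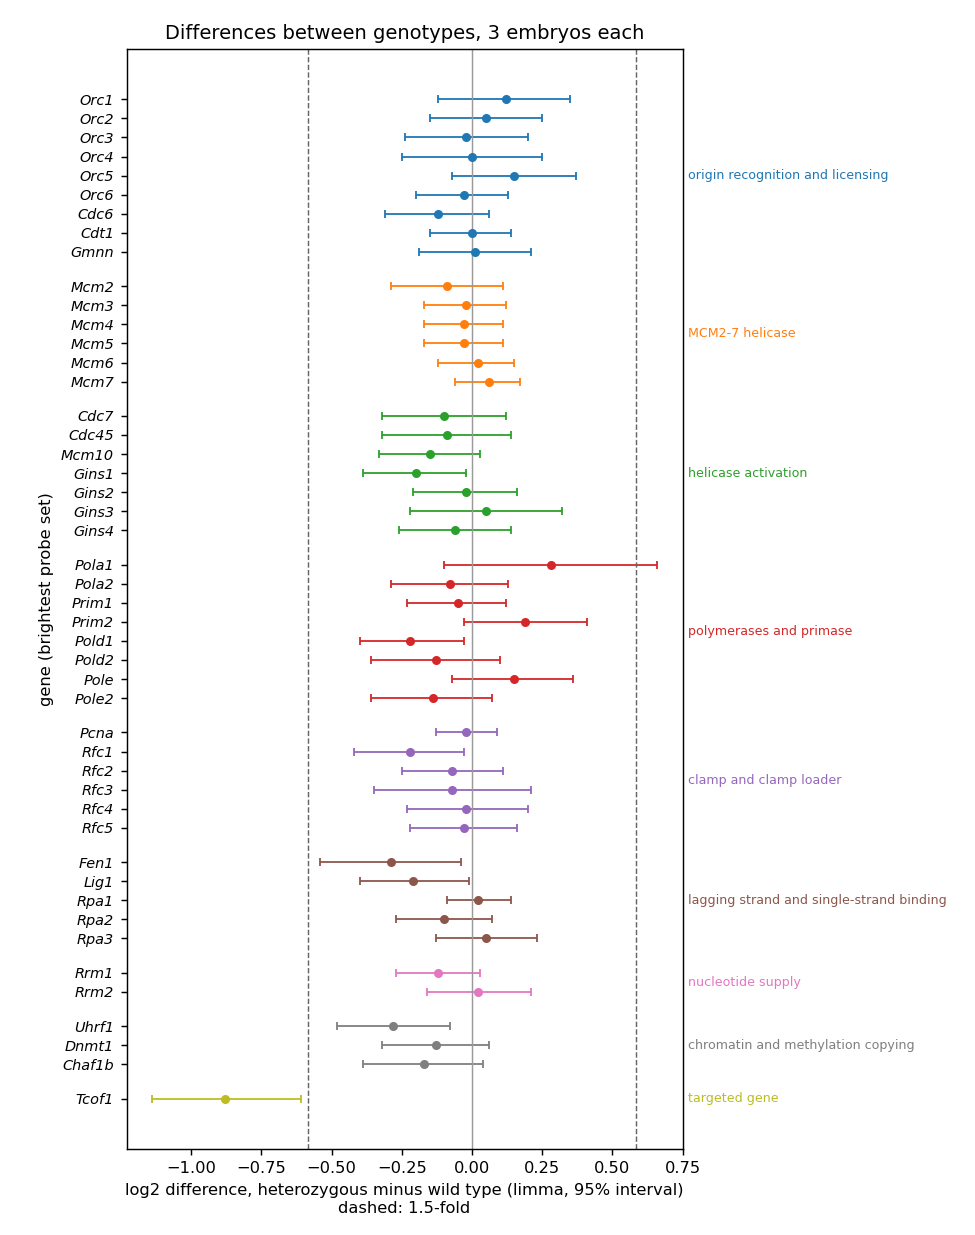
Points give the log2 difference, heterozygous minus wild type, from the limma fit with 3 embryos per genotype, and bars its 95% interval; colours mark roles and dashed lines a 1.5-fold difference. Of the 46 replication genes 45 have intervals between the dashed lines, all but Pola1. The interval of Tcof1, on its brightest probe set, lies wholly beyond 1.5-fold.

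Counted together, the small differences leaned to the lower side. Of 46 members 32 were negative (69.6%), against 52.7% of all tested genes. At an unadjusted p under 0.05 in limma, 6 were lower (Uhrf1, Pold1, Rfc1, Fen1, Gins1 and Lig1) and 0 higher. The lower ones made up 13% of members, against 3.89% of all tested genes and 4.31% of those with a mean signal of at least 250; the higher direction held 3.00% of all tested genes. Genotypes did not overlap in the lower direction for 9 members, or 19.6%, namely Uhrf1, Pold1, Rfc1, Gins1, Lig1, Mcm10, Rrm1, Rpa2 and Chaf1b. The same held for 7.31% of all tested genes and 8.12% of those with a mean signal of at least 250. The count of 6 at an unadjusted p under 0.05 became 1 with equal array medians and 0 without limma's intensity trend. The shares describe the list and were not tested, and genes of one process in the same 6 embryos are not independent of each other.

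By embryo, 31, 28 and 29 of the 46 members lay below their wild-type mean in heterozygous embryos 1, 2 and 3, where 49.9%, 53.3% and 49.0% of all tested genes did. In all 3 heterozygotes 17 of the 46 members were below it and 7 of the 46 above it, where 21.6% and 20.1% of all tested genes were. As shares, members were more often below it than all tested genes and less often above it. The median deviation of the members from their mean over the 6 embryos was 0.03, 0.03 and -0.01 in the wild types and -0.03, -0.03 and -0.02 in the heterozygotes, so that the wild-type and heterozygous values were apart by a few hundredths. Split by scan day, the members' median was -0.07 (first day) and -0.02 (second day). The primitive erythroid markers deviated by 0.53, 1.31 and 0.15 in wild types and by -2.93, -0.30 and 0.94 in heterozygotes. Yolk sac endoderm markers deviated by -1.61, 0.87 and 1.05 and by 1.78, -3.02 and 0.93. The part of these tissues in the members' differences was not tested.

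**Figure D4:**
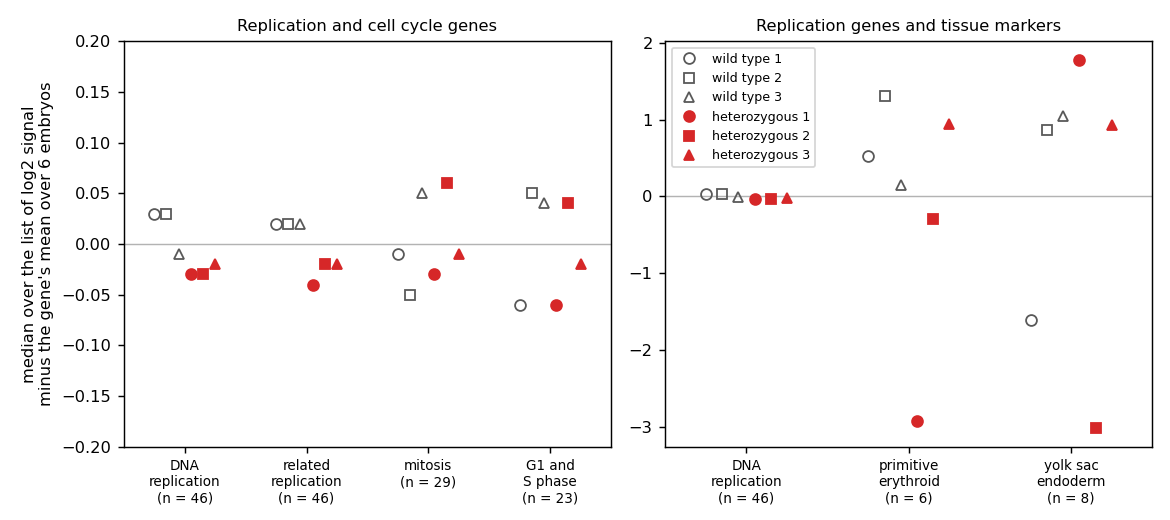
Points give, for each embryo, the median over a list of the log2 signal minus each gene's mean over the 6 embryos, with open grey symbols for wild type and filled red symbols for heterozygotes; the vertical scales of the panels differ. Replication genes lie between -0.03 and 0.03, while primitive erythroid markers run from -2.93 to 1.31 and yolk sac endoderm markers from -3.02 to 1.78.

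Probe sets of the same member did not always give the same sign. The 46 members had 101 probe sets, of which 94 were bright enough to be tested and none passed (smallest adjusted p = 0.70, limma). Of 33 members with several tested probe sets, 15 had a single sign over all of them, which was negative for 12, and 18 had mixed signs. Of the 9 members without overlap in the lower direction, Mcm10 (-0.53 to 0.41), Rpa2 (-0.10 to 0.05) and Chaf1b (-0.17 to 0.28) had mixed signs. The positive value came from a dimmer probe set in each case. The -0.53 of Mcm10 came from a dim probe set as well, with overlap, and the brightest one differed by -0.15. Uhrf1, Pold1, Rfc1 and Rrm1 were negative on every tested probe set. The second Gins1 probe set differed by 0.00 in size, and Lig1 had a single one.

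A wider set of 49 genes that work beside the members, of which 46 were tested, had 13 positive and 33 negative differences, with a median of -0.04, and none passed (smallest adjusted p = 0.707, limma, with 1 higher and 0 lower at an unadjusted p under 0.05). Supt16, a subunit of the histone chaperone FACT, had the smallest p and was on the higher side, at 870, 1080 and 1000 in wild types and 1067, 1666 and 1366 in heterozygotes, with overlap (log2 0.46, SE 0.15, unadjusted p = 0.0118). Tk1, the thymidine kinase of S phase, was next, at 642, 549 and 562 against 506, 525 and 513, without overlap (log2 -0.18, SE 0.09, adjusted p = 0.810). Genotypes did not overlap in the lower direction for 3 of the 46 (Tk1, Tipin and Asf1b), or 6.52%, beside 7.31% of all tested genes, and for 0 in the higher direction. Rrm2b, a ribonucleotide reductase subunit gene known as a target of p53, differed by 0.02 (SE 0.14).

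Of the 29 tested mitosis genes 18 were negative, with a median of -0.02, and of 23 tested G1 and S phase control genes 15 were negative, with a median of -0.06. None passed in limma (smallest adjusted p = 0.720 and 0.742). At an unadjusted p under 0.05 in limma there were 2 higher (6.90%) and 0 lower mitosis genes. Of the control genes 2 were higher and 2 lower (8.70% each). Over all tested genes 3.00% were higher and 3.89% lower. Genotypes did not overlap in the lower direction for 3 mitosis genes, 10.3%, and in the higher direction for 4, 13.8%. For the replication genes these shares were 19.6% and 2.17%, and for all tested genes 7.31% and 5.70%. The difference between the lists was not tested.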

How the data were processed

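RNA of 3 wild-type and 3 Tcof1+/- embryos was measured on 1 array each. The values are the intensity of each probe set as the authors deposited it, made with GCOS according to the submitters' processing notes, without a stated version or algorithm; each array's trimmed mean was 150. Other deposited values, the instrument records, were read, per the file headers, for the scan day and the fluidics module used. Of 45037 probe sets that are not controls, 34945 carry 1 gene symbol in the platform annotation and 932 several; the latter named no gene. Signals were tested on the log2 scale after adding a pseudocount of 1.87 (their 10th percentile), so fold changes of dim genes are understated. Probe sets in the dimmest 40% by mean log2 value (signal 13.2) were not tested. The other 27022 were fitted with limma 3.58.1 (R 4.3.3; intensity trend, 3 against 3, two-sided, Benjamini-Hochberg adjusted p under 0.05). The script was tested on simulated data. A gene is represented by its brightest probe set over the 6 arrays. Values per embryo are given for the 2 genes with the smallest p in each role and for members without overlap between genotypes; others were chosen after their values were seen. The members and lists were chosen with earlier results of these data known. Same-numbered embryos did not deviate together (correlations -0.079, -0.105 and -0.024), so numbers were not used as pairs. Alternatives were other pseudocounts, filters, scalings, fits, blocks, probe set averaging, an Xist covariate and leaving out each embryo. The number of arrays limits the precision.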

Additional observations from a re-analysis of the deposited data

How the results depend on the processing

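No replication gene passed under any of the 19 alternatives, whose smallest adjusted p ran from 0.279 with the mean of each gene's probe sets to 0.998 with equal array medians (limma). The number at an unadjusted p under 0.05 ran from 0 without the intensity trend to 6. With the replicate number as a block, 0 passed and 4 had an unadjusted p under 0.05 in limma. The embryos share only a number, and the block did not alter a call. The median difference of -0.033 could not be altered by it, since each number holds 1 embryo of each genotype. The median of -0.033 stayed negative in every alternative. It was -0.075 on the first scan day alone, and with each embryo left out in turn it ran from -0.069 (without wild-type embryo 3) to -0.034; it was -0.056 without heterozygous embryo 2. The cause was not tested. Over all tested genes the median was -0.012 in the main setting and also negative in most alternatives. It was -0.019 on the first scan day alone and 0.000 without heterozygous embryo 2. With equal array medians it was -0.027, beside -0.048 for the members. Of the 46 members 25 kept their sign under all 19 alternatives, 19 of them negative, and 21 changed it in at least 1. The filters, the intensity trend and the replicate and scan day blocks leave each difference as it is. Those alternatives could therefore not turn a sign or move the members' median. The largest difference among those 21 had a size of 0.17 (Chaf1b). Averaging probe sets turned the sign of 10 members, leaving out wild-type embryo 1 that of 7, and the Xist covariate that of 6. With 3 embryos per genotype the members' unadjusted 95% intervals reached a median of 0.19 to each side on the log2 scale, and even Fen1, at -0.29, did not pass after adjustment.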
